A study of Mus musculus with 18 samples.

Results

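Long cassette exons are internal exons of at least 300 nucleotides (nt) that can be included in an mRNA or skipped. They were taken from the deposited splicing table of mouse embryonic fibroblasts (MEFs) during reprogramming by 3 criteria: an event of type S, C1, C2, C3 or ANN, the types of *vast-tools* for cassette exons, a LENGTH of 300 nt or more, and a coverage score other than N in all 18 libraries. A score other than N (VLOW or better) stands for at least 10 reads. Of 661941 events in the table, 8306 were cassette events of this length, and 3792 of them, in 2737 genes, had the coverage. The rule used neither the level of inclusion nor its change. It was met by 24 exons of exactly 300 nt, while 14 covered cassette exons were 1 nt shorter and fell just outside.

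The cells were primary MEFs of genotype Collagen-OKSM, M2rtta+, from male embryos according to the study's methods, in which doxycycline induces OCT4, SOX2, KLF4 and MYC (OSKM), and all groups carried both alleles. In the knockdown dataset (12 libraries), non-infected cells (NI) at day 0 were set beside cells at day 12 of doxycycline that had been infected with lentiviruses. These carried shCPSF3#1 or shCPSF3#2 against *Cpsf3*, shUL1#1 or shUL1#2 against *Hnrnpul1*, or a scrambled control (shSCR). In the overexpression dataset (6 libraries), NI cells at day 0 were set beside cells at day 12 transduced with an empty retroviral vector (Empty) or with T7-tagged TIA1 (T7-TIA1). Each of the 9 groups had 2 libraries of polyA RNA. One label field gives another day for shUL1#2 and for NI of the overexpression dataset than the titles, and the titles were followed. Infected cells were sorted for GFP at day 2 and then grown on irradiated feeder MEFs, and NI cells were not, so that day, infection, sorting and feeder RNA cannot be told apart in comparisons with day 0. In bulk RNA, a change of splicing within cells and a change in the mixture of cells cannot be told apart either. Nothing in the labels says whether the libraries of a group came from separate embryos, so the p values measure the spread between these libraries, which may be technical.

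Most vertebrate exons are short, and the splicing machinery recognizes them as a unit by pairing the splice sites across the exon. A long exon places these sites far apart, and many long exons carry a whole domain or a repeat of the protein, so that skipping removes a large block of sequence at once. Long exons are known, for example, from *Nasp*, a histone chaperone whose testis and embryonic form has an extra block, and from *Rtn4*, where a single exon makes the difference between Nogo-A and Nogo-B. Others are known from *Vcan*, where one exon encodes an attachment region for glycosaminoglycans, and from *Kif23*, a kinesin of cytokinesis whose longer form is CHO1.

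The reads behind inclusion cross 2 junctions, from the upstream exon into the long exon and from the long exon into the downstream exon, while skipping is seen at 1 junction. Percent spliced in (PSI) gives the share of inclusion among both outcomes, from 0 for an exon that is always skipped to 100. The junctions of 5 annotated coding exons that the results turn on are shown as 15 bases on either side of the joint, from the transcripts of GENCODE M21 on mm10, with bases of the long exon in capitals and those of the flanking exons in lower case. They show which sequences are counted as inclusion and which as skipping.
*Nasp* exon, chr4:116610403-116611377, minus strand, upstream junction: atgataatgtagatgAGGAAGCAAGGGAAG
*Nasp* exon, downstream junction: TGAAAGAGGGTGAAGaaactgaaggctcag
*Nasp* skipping junction: atgataatgtagatgaaactgaaggctcag
*Epb41l1* exon, chr2:156524881-156525288, plus strand, upstream junction: gaaaaagccagtgagAGAGCAGGGCTGAGG
*Epb41l1* exon, downstream junction: ATGCCCCAGTTTGAGtctgtgaaagcagaa
*Epb41l1* skipping junction: gaaaaagccagtgagtctgtgaaagcagaa
*Pam* exon, chr1:97864203-97864520, minus strand, upstream junction: aagccttcgagcaggGTGATTTCTATTCAC
*Pam* exon, downstream junction: CAGAACTCGCAGGAGatttccatgtggaag
*Pam* skipping junction: aagccttcgagcaggatttccatgtggaag
*Kif23* exon, chr9:61923905-61924216, minus strand, upstream junction: ccttcgcctctacctCTTTCTAGTAACAAT
*Kif23* exon, downstream junction: GACCATTGCCGCAGGaacaccccaattcct
*Kif23* skipping junction: ccttcgcctctacctaacaccccaattcct
*Vcan* exon, chr13:89702918-89705797, minus strand, upstream junction: cctactgctttaaacCTAAACAGAATATAT
*Vcan* exon, downstream junction: GAGAAAACAAGACAGgtcgattgagtgata
*Vcan* skipping junction: cctactgctttaaacgtcgattgagtgata

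Most long exons were nearly always included. The mean PSI was above 90 in all 9 groups for 3024 exons (79.7%) and below 10 in all 9 for 567 (15%), and PSI was exactly 100 in all 18 libraries for 986. The remaining 201 exons (5.30%) had a mean PSI of 10 to 90 in at least 1 group, against 5.08% of 101543 shorter cassette exons (28 nt or more) with the same coverage. The mean PSI over all long exons lay between 82.47 and 82.76 in the 18 libraries, and the share with an intermediate PSI between 2.98% and 4.56%. Both libraries of NI in the overexpression dataset were among the 3 lowest in this share and both T7-TIA1 libraries among the 3 highest.

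The long exons had a median length of 492.5 nt, with quartiles of 361 and 740.25 nt. A length under 500 nt was held by 1930 exons, a length of at least 500 and under 1000 nt by 1386, and a length of 1000 nt or more by 476. The share with intermediate inclusion was 4.87%, 5.70% and 5.88% in these 3 classes. Of the 10 longest exons, the 8104-nt exon of *Map1a*, which encodes a microtubule-associated protein, had a PSI of 82.53 to 100 over the libraries. The 6836-nt exon of *Mki67*, which encodes the proliferation marker Ki-67, had a PSI of 100 in all of them. In contrast, the 6198-nt exon of *Ank2*, known as the giant exon of neuronal ankyrin-B, had a PSI of 3.23 to 12.82. The 5292-nt exon of *Dst*, which encodes the linker protein dystonin, was intermediate throughout, at 48.63 to 74.59.

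Inclusion went with the annotation of the exon. Of the long exons, 3102 (81.8%) matched an exon of GENCODE M21 at both ends, and 2450 of these were coding in full and 592 in part. Among the fully coding exons 96.0% had a mean PSI above 90 in every group and 3.43% were intermediate. Of the 690 exons without such a match, 73.9% were below 10 in every group and 11.7% were intermediate. The 3′ splice site was also that of an annotated last exon for 1215 long exons, and the 5′ splice site that of an annotated first exon for 692. At such sites reads of a terminal exon can also enter 1 of both inclusion junctions. Named exons with such a 3′ site include those of *Rbmx*, *Cdk12*, *Arap1*, *Ahnak*, *Cenpj*, *Ncoa6*, *Rbm4*, *Pla2r1*, *Kif23* and *Phf3*. They also include exons of *Col6a3*, *Ptprs* and *Dst* (603, 600 and 5292 nt). Named exons with such a 5′ site include *Def8*, *Slc25a22*, *Arap1*, *Gcnt2*, *Nav1*, *Hnrnpl*, *Pam*, *Epb41* (450 nt) and *Ptprs* (306 nt).

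Exon length was set against the reading frame. A length that is a multiple of 3, which leaves the frame unchanged on skipping, was found for 1482 long exons (39.1%), close to the 39.0% of the shorter cassette exons. Over all long exons it was found for 1187 of the 3024 above 90 in every group, 92 of the 201 with intermediate inclusion and 39 of the 84 that passed the ∆PSI criteria given below in any comparison (46.4%). The shares lay further apart among the fully coding long exons. There it was found for 40.8% of the 2352 that were above 90 in every group. It was found for 63.1% of the 84 with intermediate inclusion (53 exons), and for 79.4% of the 34 that passed the criteria (27 exons). These shares are a description and were not tested.

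**Figure D1:**
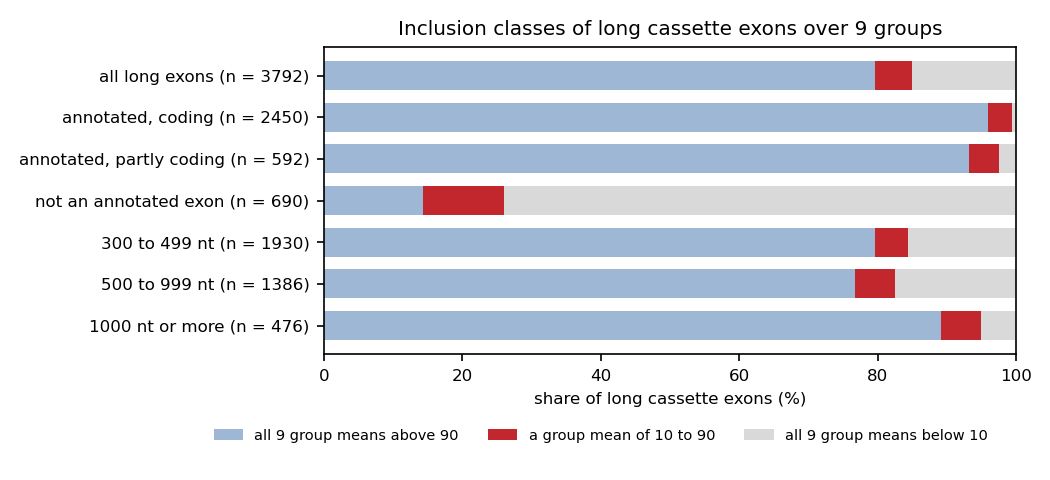
Share (%) of long cassette exons with a mean PSI above 90 in all 9 groups (blue), a mean PSI of 10 to 90 in at least 1 group (red) or a mean PSI below 10 in all 9 groups (grey), for all 3792 exons and by annotation and length. Exons that match no annotated exon stand apart, with 73.9% below 10.

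The libraries had 2033404 to 2511578 junction reads on the long exons, with a median of 251 to 324 reads per exon, and the counting errors of PSI are correspondingly small except for exons near the minimum. The labels were checked with the targeted genes in scaled CPM, the deposited expression unit. *Cpsf3*, which encodes the endonuclease of mRNA 3′ end processing, had 86.7 and 118 in shSCR and 38.6 to 77.1 with shRNAs against it. *Hnrnpul1* had 156 and 185 in shSCR and 38.7 to 85.8 with its shRNAs, and *Tia1* had 85.6 and 77.0 in Empty and 613 and 469 in T7-TIA1. Markers of the cell types moved with the groups as well. Of 12 fibroblast genes, 10 were listed in the knockdown table, and their summed level was 15200 to 18400 in NI, 6640 to 7690 in shSCR, 16700 to 27800 in shCPSF3#1 and shCPSF3#2 together, and 14300 to 32500 in shUL1#1 and shUL1#2 together. In the overexpression table, 9 of them summed to 17000 to 38900 in NI, 6450 to 7230 in Empty and 5250 to 5630 in T7-TIA1. In bulk RNA, fewer cells of a type and less RNA per cell cannot be told apart. Of 9 epithelial genes, the 3 listed summed to 49.9 to 62.4 in NI, 365 to 627 in shSCR and 46.2 to 276 in the 4 knockdown groups, and the 1 listed in the overexpression table was at 15.3 to 28 in NI, 31.4 to 43.2 in Empty and 39.9 to 81.8 in T7-TIA1. *Cd68* and *Lyz2*, the 2 of 4 blood cell markers that were listed, summed to 7.34 to 8.74 in NI, 162 to 279 in shSCR and 247 to 1740 in the knockdown groups. None of 11 pluripotency genes or 3 endothelial genes was listed, and the 1 muscle and the 1 neural gene listed in the knockdown table were highest in NI, at 54.1 to 54.8 and 36.7 to 42.0, against 13.8 to 15.4 and 5.78 to 9.71 in shSCR, and 6.13 to 36.6 and 15.1 to 34.5 in the 4 knockdown groups. The neural gene thus did not overlap between shSCR and the knockdown groups. In the overexpression dataset 2 of 3 neural genes summed to 72.9 to 125 in NI and 32.9 to 42.4 at day 12, and 0 of 4 blood or 4 muscle genes were listed. The part of these shifts in the PSI values below was not tested.

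Between day 0 and day 12 of reprogramming, control cells with shSCR included the long exons of *Nasp*, *Rtn4*, *Phf8* and *Kif23* more often, and those of *Rbmx*, *Cdk12*, *Epb41l1* and *Ptprs* less often. The PSI differences ran from −69.8 points at *Rbmx* to 59.0 at *Nasp*. By the criteria of the study, |∆PSI| between group means of at least 10 and a distance of at least 5 between any libraries of the groups, 61 long exons in 58 genes passed between NI and shSCR, 36 with higher and 25 with lower inclusion. That is 1.61% of the long exons, against 1.22% of all 382237 covered events (0.75% higher and 0.47% lower) and 1.33% of the shorter cassette exons. A test on the reads (*limma* on the log2 ratio of inclusion to exclusion reads, all groups of the dataset in 1 fit, Benjamini-Hochberg adjustment over 298974 events) could be applied to 2572 long exons whose PSI varied over the dataset. It called 99 of them at an adjusted p under 0.05, 58 higher and 41 lower, or 3.85%, against 2.93% of all events tested (1.92% higher and 1.01% lower) and 3.61% of the shorter cassette exons. Of these 99, 48 had a |∆PSI| under 5, and 35 exons passed both. The median ∆PSI over the 201 exons with intermediate inclusion was 1.5. The number called was 23 and 19 without replicate 1 or 2 of NI, and 34 and 53 without replicate 1 or 2 of shSCR.

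The largest rise was that of *Nasp*. Its 975-nt coding exon had a PSI of 18.2 and 19.0 in the NI libraries and 74.7 and 80.7 in shSCR. The groups lay far apart, with ∆PSI = 59.0 and a log2 change of the inclusion ratio of 3.94 ± 0.63 (SE, *limma* adjusted p = 0.0162). The exon of *Rtn4* (chr11:29706410-29708770, plus strand, 2361 nt or 787 codons), which is specific to Nogo-A, had 15.2 and 13.3 in NI and 41.4 and 51.0 in shSCR (∆PSI = 32.0, adjusted p = 0.00171). Skipping thus remained the more frequent outcome for *Rtn4* in 1 of 2 shSCR libraries, whereas *Nasp* went from mostly skipped to mostly included. In *Phf8* (chrX:151572366-151572668, 303 nt), which encodes a histone demethylase, PSI was 44.4 and 42.5 in NI and 67.7 and 73.7 in shSCR (adjusted p = 0.0101). *Kif23*, added after its values were seen, had 26.2 and 20.7 in NI and 47.2 and 44.4 in shSCR at its 312-nt exon (∆PSI = 22.3, adjusted p = 0.0022).

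A pair of exons that rose did not match an annotated exon. The 306-nt exon of *Def8* had 7.28 and 13.6 in NI and 64.6 and 48.4 in shSCR (∆PSI = 46.0, adjusted p = 0.0112), and that of *Slc25a22*, a mitochondrial glutamate carrier, had 4.65 and 2.64 and 37.0 and 21.6 (adjusted p = 0.00992). Their reads came almost wholly from the downstream inclusion junction, with 636 reads there against 39 upstream for *Def8* and 283 against 0 for *Slc25a22*, summed over 18 libraries. The 5′ splice site of both is that of an annotated first exon, so their PSI can also count transcripts that start there. A 374-nt exon of E330013P04Rik, again without annotation, had 10.4 and 21.4 in NI and 59.7 and 59.2 in shSCR, with an adjusted p of 0.0517.

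Among the exons that fell, *Rbmx* changed most. Rbmx is an RNA-binding protein of the hnRNP G family, and the 1253-nt exon (chrX:57386141-57387393, minus strand) shares the 3′ splice site of an annotated last exon. It had a PSI of 77.2 and 82.0 in NI and 7.82 and 11.7 in shSCR (∆PSI = −69.8, log2 change −5.09 ± 0.28, adjusted p = 0.000234). Over the libraries, 1900 reads lay on its upstream and 216 on its downstream inclusion junction, and the upstream reads can include those of the last exon. *Cdk12*, a kinase of RNA polymerase II, had the same kind of site at a 350-nt exon, with 2384 upstream and 644 downstream reads. Its PSI was 90 and 85.2 in NI and 40.2 and 46.2 in shSCR (adjusted p = 0.0135). In *Arap1*, a GTPase-activating protein, a 542-nt exon fell from 52.9 and 58.0 to 25.6 and 22.8 (adjusted p = 0.00103). It matches no annotated exon and had 8 upstream and 3096 downstream reads.

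Annotated coding exons with both junctions covered also fell. The 408-nt exon of *Epb41l1*, which encodes a 4.1 protein that links the membrane to the actin and spectrin cytoskeleton, had 70.3 and 69.0 in NI and 39.7 and 34.5 in shSCR (∆PSI = −32.5, log2 change −1.95 ± 0.16, adjusted p = 0.00137). The 306-nt exon of *Ptprs* (chr17:56428852-56429157, minus strand), a receptor tyrosine phosphatase, had 89.0 and 89.8 in NI and 64.5 and 50.4 in shSCR (∆PSI = −32.0, adjusted p = 0.0338). A second exon of *Ptprs*, of 600 nt, had 90.5 and 94.1 in NI and 66.8 and 58.7 in shSCR, past the ∆PSI criteria but with an adjusted p of 0.0818. The spread between the shSCR libraries was wide at both *Ptprs* exons, and neither overlapped with NI. *Safb2* and *Safb*, paralogs that encode scaffold attachment factors and were added after their values were seen, fell by 24.7 and 11.3 points at exons of 658 and 577 nt (adjusted p = 0.00711 and 0.00888), with reads that can be shared between such close paralogs. Of the exons named by rule, the calls of *Rtn4*, *Rbmx*, *Epb41l1* and *Arap1* held with any 1 of the 4 libraries left out. Those of *Nasp*, *Def8*, *Phf8*, *Slc25a22*, *Cdk12* and the shorter *Ptprs* exon were lost without replicate 1 and without replicate 2 of NI, with adjusted p of up to 0.095, 0.0831, 0.0793, 0.0818, 0.0883 and 0.173. The calls of *Nasp* and *Ptprs* were also lost without either shSCR library, and that of *Cdk12* without replicate 1 of shSCR.

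**Figure D2:**
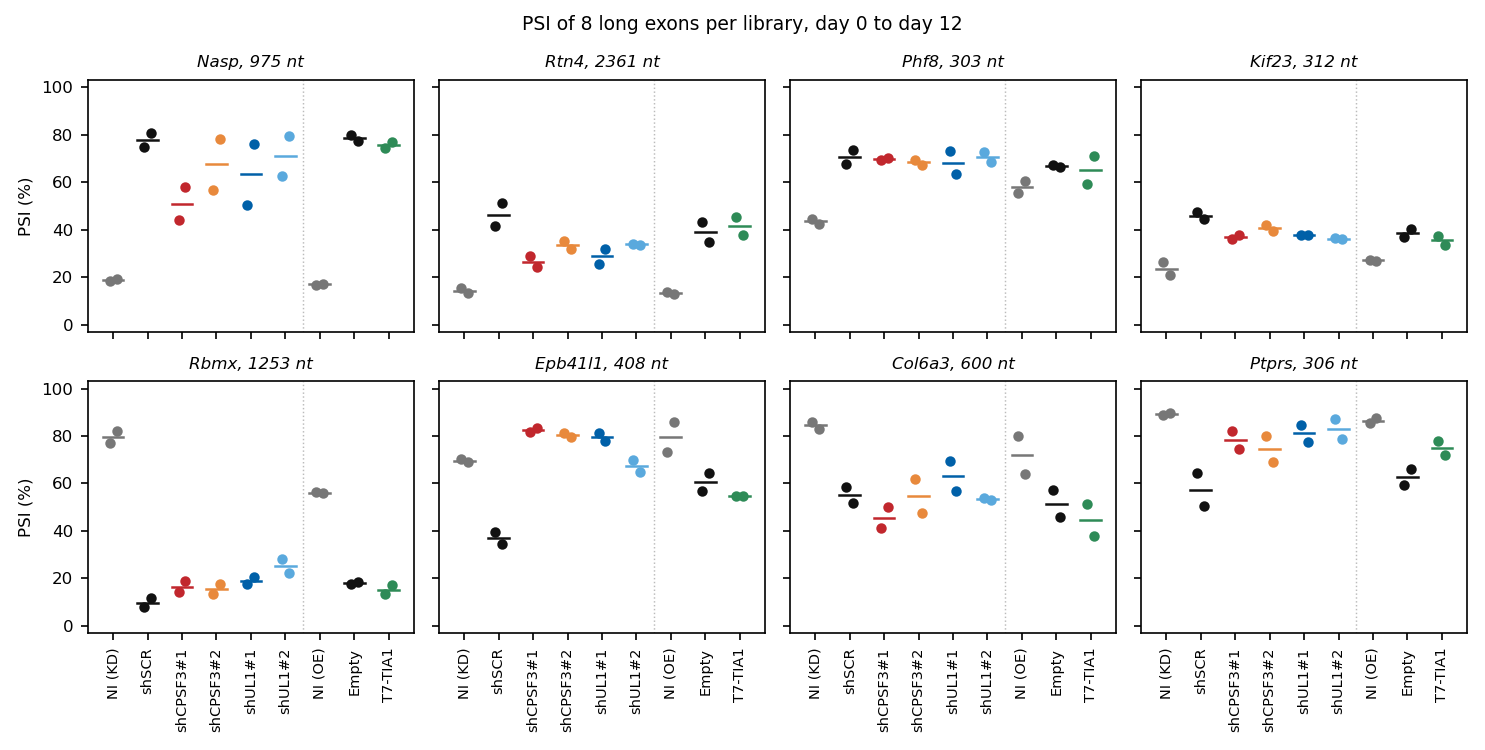
PSI (%) of 8 long exons in each library of the 9 groups, with a line at the mean of the 2 libraries and a dotted line between the knockdown (KD) and overexpression (OE) datasets. *Nasp*, *Rtn4*, *Phf8* and *Kif23* lie higher in shSCR than in NI, and *Rbmx*, *Epb41l1*, *Col6a3* and *Ptprs* lie lower.

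Empty against NI addresses the same step in libraries of its own, with inclusion of *Nasp* again higher and that of *Rbmx* again lower at day 12. The ∆PSI criteria were met by 40 long exons in 38 genes, 22 higher and 18 lower, which is 1.05% against 0.679% of 384515 covered events (0.345% higher and 0.334% lower) and 0.788% of the shorter cassette exons. The read-level test called 2 of 2227 long exons, 1 higher and 1 lower, or 0.0898% against 0.023% of all events (0.00841% higher and 0.0146% lower) and 0.0643% of the shorter cassette exons. The test gave 396 an unadjusted p under 0.05, a count without its share over all events. With any 1 of the 4 libraries left out, NI or Empty, it called 0, with adjusted p of 0.172 to 0.593 for *Nasp* and 0.231 to 0.593 for *Rbmx*. The 2 were *Nasp*, with 16.8 and 17.3 in NI and 79.7 and 77.3 in Empty (∆PSI = 61.5, adjusted p = 0.00138), and *Rbmx*, with 56.3 and 56.1 in NI and 17.7 and 18.4 in Empty (∆PSI = −38.2, adjusted p = 0.0153). Inclusion of *Rbmx* at day 0 was thus lower in the overexpression dataset than in the knockdown dataset, in both libraries of each.

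The lists of both datasets overlapped. Of the 61 long exons that passed with shSCR, 29 (47.5%) also passed with Empty, and these were 72.5% of the 40 of Empty, all 29 with the same direction. This overlap was not counted over all events or over the shorter cassette exons, so it is not given as particular to long exons. The ∆PSI had the same sign in Empty for 56 of the 61, and in shSCR for 36 of the 40. Of the 99 exons called by the read-level test with shSCR, fewer in proportion, 71, had the same sign in Empty. Over the 201 exons with intermediate inclusion, the day 12 differences of both datasets had a Pearson r of 0.752, a description across exons, which are not independent and of which many have few reads or a PSI near 0 or 100. The median size of the change in the direction of shSCR was 17.5 points in shSCR and 9.54 in Empty for the 61 exons, which were chosen on the shSCR values. At the same stage, the datasets differed at few long exons by these criteria. NI differed between them at 12 long exons, or 0.316% against 0.281% of all covered events, and Empty differed from shSCR at 15, or 0.396% against 0.514%.

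Further exons passed the ∆PSI criteria in Empty without being called by the read-level test. *Arap1* had 54.0 and 70 in NI and 26.4 and 30.2 in Empty (adjusted p = 0.105). *Def8* had 6.16 and 8.06 in NI and 51.2 and 29.5 in Empty (adjusted p = 0.213), and *Rtn4* had 13.7 and 12.7 and 43.2 and 34.7 (adjusted p = 0.0703). The 2880-nt exon of *Vcan*, the versican exon for glycosaminoglycan attachment, had 25.3 and 25.6 in NI and 45.6 and 59.0 in Empty (∆PSI = 26.8, adjusted p = 0.111). In the knockdown dataset it had 25.8 and 21.9 in NI and 36.5 and 40.7 in shSCR, in the same direction and also short of the threshold (adjusted p = 0.114). *Ncoa6* (chr2:155405475-155408450, minus strand, 2976 nt), a nuclear receptor coactivator, had 97.9 and 98.3 in NI and 58.6 and 81.0 in Empty (∆PSI = −28.3, adjusted p = 0.141). With shSCR it had 96.0 and 90.2 in NI and 56.7 and 39.8 at day 12 (adjusted p = 0.0551), again without overlap. *Nin*, which encodes the centrosomal protein ninein and was added after its values were seen, had 100 in all 4 NI libraries at its 2121-nt exon, against 89.8 and 55.6 in shSCR and 75.7 and 89.1 in Empty, with adjusted p of 0.126 and 0.2 and only 60 to 213 reads per library.

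**Figure D3:**
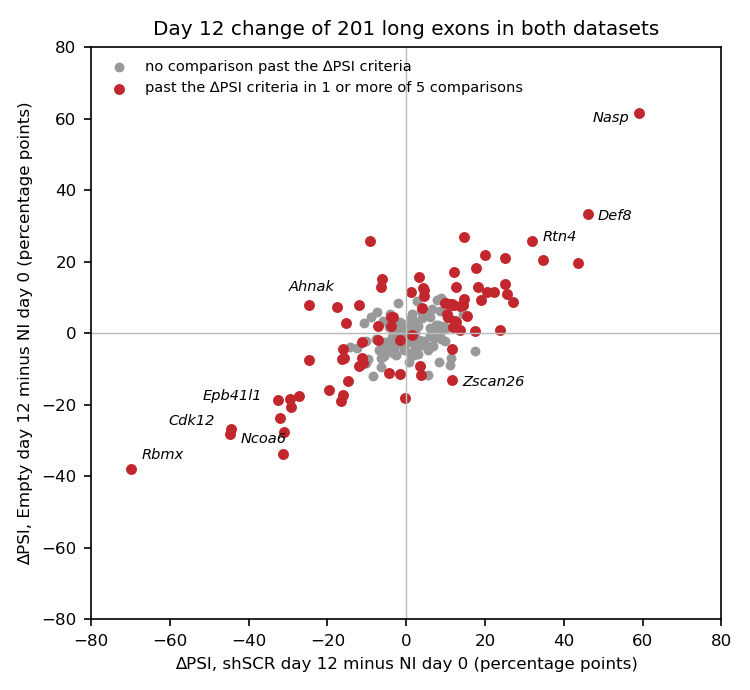
∆PSI (percentage points) between day 12 and day 0 with shSCR (horizontal) and Empty (vertical) for the 201 long exons with a mean PSI of 10 to 90 in at least 1 group; red marks the 84 exons past the ∆PSI criteria in at least 1 of 5 comparisons. The exons with the largest changes, *Nasp* and *Rbmx*, lie in the upper right and lower left, and Pearson r is 0.752.

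With knockdown of *Cpsf3*, the exons of *Epb41l1* and *Pam* were included more often than with shSCR at day 12, and those of *Rtn4* and *Rbm4* less often. The ∆PSI criteria were extended here for the comparisons of day 12 libraries, after the study but not in its exact form: the mean difference of both shRNAs had to reach 10 points, and for each shRNA at least 1 of the 3 pairs among NI, shSCR and that shRNA had to pass the criteria. One shRNA alone may thus differ from shSCR by less than 10. On this basis 33 long exons in 31 genes differed, 18 higher and 15 lower with knockdown, or 0.870% against 0.588% of 375244 events (0.248% higher and 0.34% lower) and 0.717% of the shorter cassette exons. The read-level test called 37 of 2572, 17 higher and 20 lower, or 1.44% against 0.935% of all events (0.353% higher and 0.582% lower) and 1.45% of the shorter cassette exons. Both were met by 14 exons. With each shRNA required to differ by 10 points in the same direction, a form added after seeing the data, 28 of the 33 passed, 14 in either direction. The number called was 15 (12 higher and 3 lower) without replicate 1 of shSCR and 31 (21 higher and 10 lower) without replicate 2, so that the direction with more calls depended on the setting. It was 12 and 9 without replicate 1 or 2 of shCPSF3#1, and 11 and 16 without replicate 1 or 2 of shCPSF3#2.

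*Epb41l1* differed most. Its exon had 39.7 and 34.5 in shSCR, 81.8 and 83.5 in shCPSF3#1 and 81.4 and 79.5 in shCPSF3#2 (∆PSI = 44.4, log2 change 2.90 ± 0.14, adjusted p = 0.000485). All 4 knockdown libraries lay above both shSCR libraries and above the NI libraries of that dataset, at 70.3 and 69.0. A 587-nt exon of the transporter gene *Abcc5* had 6.22 and 8.10 in shSCR and 25.5 to 37.5 with knockdown (∆PSI = 24.3, adjusted p = 0.00994). It is no annotated exon, and 1538 reads lay on its upstream and 46 on its downstream junction. *Pam*, which encodes the enzyme that amidates peptide hormones, had 54.5 and 60 in shSCR and 67.7 to 72.6 with knockdown at its 318-nt exon (∆PSI = 13.4, adjusted p = 0.0143). Its NI libraries, at 54.0 and 52.5, were near those of shSCR, so *Pam* is an exon that differed with knockdown and was not called between day 0 and day 12 of shSCR (adjusted p = 0.341). *Mipol1* and *Ahnak*, the latter encoding a giant scaffold protein, were also higher, by 22.3 and 20 points (adjusted p = 0.0149 and 0.0409), with 18 and 57 reads on the downstream junction against 2994 and 7616 upstream. Neither of these exons matches an annotated exon.

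Other exons were lower with knockdown. The Nogo-A exon of *Rtn4* had 41.4 and 51.0 in shSCR, 28.7 and 24.2 in shCPSF3#1 and 35.1 and 31.7 in shCPSF3#2 (∆PSI = −16.3, adjusted p = 0.0397). All of these lay above the NI libraries, so inclusion was between the levels of day 0 and of shSCR. *Def8* fell by 28.8 points (adjusted p = 0.0444), and a 374-nt exon of E330013P04Rik by 35.1 points (adjusted p = 0.0309), the latter from 59.7 and 59.2 to 20.8 to 29.5. In *Rbm4*, which encodes a splicing regulator, a 682-nt exon that is coding in part (chr19:4787361-4788042, minus strand) had 89.4 and 87.7 in shSCR and 69.5 to 81.9 with knockdown (∆PSI = −13.3, adjusted p = 0.0294). A 395-nt exon of *Wdr20* fell by 14.7 points (adjusted p = 0.0498). The exons of E330013P04Rik and *Wdr20* match no annotated exon, with 28 and 145 reads on the downstream against 1226 and 1757 on the upstream junction. Of the exons named by rule, the call of *Epb41l1* held with any 1 of the 6 libraries left out. The 9 others were lost without replicate 1 of shSCR, and all of these but *Abcc5* also without at least 1 knockdown library, those of *Rtn4*, *Rbm4*, *Mipol1*, *Wdr20* and E330013P04Rik without replicate 2 of shSCR as well, with adjusted p of up to 0.0768 for *Pam* and 0.18 for *Ahnak*, the lowest and highest of the 9.

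With the replicate number as a block, 49 long exons were called in place of 37, 29 higher and 20 lower in place of 17 and 20. The share of all events called with the block is not set beside these counts, so the shift is not read as particular to long exons. The block ended the calls of *Def8* (adjusted p = 0.0522), *Ahnak* (0.0512) and *Wdr20* (0.0561). It added those of *Ncoa6*, with 56.7 and 39.8 in shSCR and 73.0 to 94.0 with knockdown (adjusted p = 0.0837 without and 0.00964 with the block), and of the 306-nt exon of *Ptprs*, with 64.5 and 50.4 and 69.0 to 82.3 (adjusted p = 0.142 and 0.016). *Nasp* had 43.8 to 78.2 with knockdown against 74.7 and 80.7 in shSCR, which met the ∆PSI criteria but neither threshold (adjusted p = 0.304 and 0.087). The 577-nt exon of *Safb*, not named by rule, was also added, with ∆PSI = 5.69 (adjusted p = 0.13 without and 0.0328 with the block). In each of the knockdown libraries the summed fibroblast markers were above those of shSCR, as given above.

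Knockdown of *Hnrnpul1*, which encodes an RNA-binding protein of the hnRNP U family, gave higher inclusion of *Epb41l1*, *Arap1*, *Abcc5* and *Pam* than shSCR, and lower inclusion of *Cdadc1*. The shSCR libraries were those used for *Cpsf3*, so the values of both knockdowns share their control and are only given side by side. The ∆PSI criteria were met by 31 long exons in 30 genes, 18 higher and 13 lower, or 0.818% against 0.498% of 378595 events (0.227% higher and 0.27% lower) and 0.609% of the shorter cassette exons. With each shRNA required to differ by 10 points in the same direction, 24 of the 31 passed, 15 higher and 9 lower. The read-level test called 14, 7 in either direction, or 0.544% against 0.309% of all events (0.134% higher and 0.175% lower) and 0.586% of the shorter cassette exons. With the replicate number as a block it called 25, 15 higher and 10 lower, also without the share over all events. The number called was 4 (3 higher and 1 lower) without replicate 1 of shSCR and 21 (15 higher and 6 lower) without replicate 2. It was 4 and 7 without replicate 1 or 2 of shUL1#1, and 4 and 6 without replicate 1 or 2 of shUL1#2.

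*Epb41l1* was again the exon with the largest rise. It had 81.1 and 77.8 in shUL1#1 and 70 and 64.9 in shUL1#2, against 39.7 and 34.5 in shSCR (∆PSI = 36.3, log2 change 2.24 ± 0.14, adjusted p = 0.00276). *Arap1* had 41.1 to 49.1 with knockdown and 25.6 and 22.8 in shSCR (∆PSI = 20.7, adjusted p = 0.00591). With shRNAs against *Cpsf3* the same exon had 33.5 to 38.0 (∆PSI = 10.8, adjusted p = 0.029). *Abcc5* and *Pam* rose by 15.5 and 14.1 points (adjusted p = 0.0416 and 0.0179). A 348-nt exon of *Cdadc1*, which encodes a cytidine deaminase, matches no annotated exon. It fell by 14.1 points, from 29.2 and 24.2 in shSCR to 10.2 to 15.3 (adjusted p = 0.0298), and by 12.8 points with shRNAs against *Cpsf3* (adjusted p = 0.0293). The calls of *Epb41l1* and *Arap1* held with any 1 of the 6 libraries left out, and those of *Abcc5* and *Cdadc1* were lost without any 1 of them, with adjusted p of 0.0995 to 0.198 and 0.0549 to 0.163. The call of *Pam* was lost without replicate 1 of shSCR and without any 1 of the knockdown libraries, with an adjusted p of up to 0.0943. With shRNAs against *Cpsf3*, the calls of *Arap1* and *Cdadc1* were lost without any 1 of the 6 libraries, with adjusted p of 0.0589 to 0.117 and 0.0505 to 0.164.

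*Def8* and E330013P04Rik met the ∆PSI criteria with knockdown of *Hnrnpul1* without being called, with ∆PSI of −29.1 and −27.4 (adjusted p = 0.0665 and 0.0908). The block added the calls of *Ncoa6* (∆PSI = 32.5, adjusted p = 0.0298), the 306-nt exon of *Ptprs* (∆PSI = 24.6, adjusted p = 0.0116), *Mipol1* (∆PSI = 17.1, adjusted p = 0.0442) and *Rbm4* (∆PSI = −12.0, adjusted p = 0.0428). It also added those of *Gcnt2* (∆PSI = 11.4, adjusted p = 0.388 without and 0.0385 with the block) and of the exon of *Safb* (∆PSI = 6.09, adjusted p = 0.153 and 0.0421). The exon of *Gcnt2* matches no annotated exon and had 3 upstream and 1758 downstream reads. The 1717-nt exon of *Phf3*, which encodes a protein bound to RNA polymerase II and was added after its values were seen, had 93.6 and 94.5 in shSCR and 82.3 to 89.2 in the 8 knockdown libraries (adjusted p = 0.0106 for *Cpsf3* and 0.0253 for *Hnrnpul1*).

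Each knockdown group was also set against NI by the ∆PSI criteria, where 49 long exons passed for shCPSF3#1 (30 higher and 19 lower, 1.29% against 0.688% of all covered events) and 41 for shCPSF3#2 (26 and 15, 1.08% against 0.656%). For shUL1#1 it was 41 (27 and 14, 1.08% against 0.728%) and for shUL1#2 36 (20 and 16, 0.949% against 0.665%). T7-TIA1 differed from its NI at 45 (21 and 24, 1.19% against 0.721%).

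**Figure D4:**
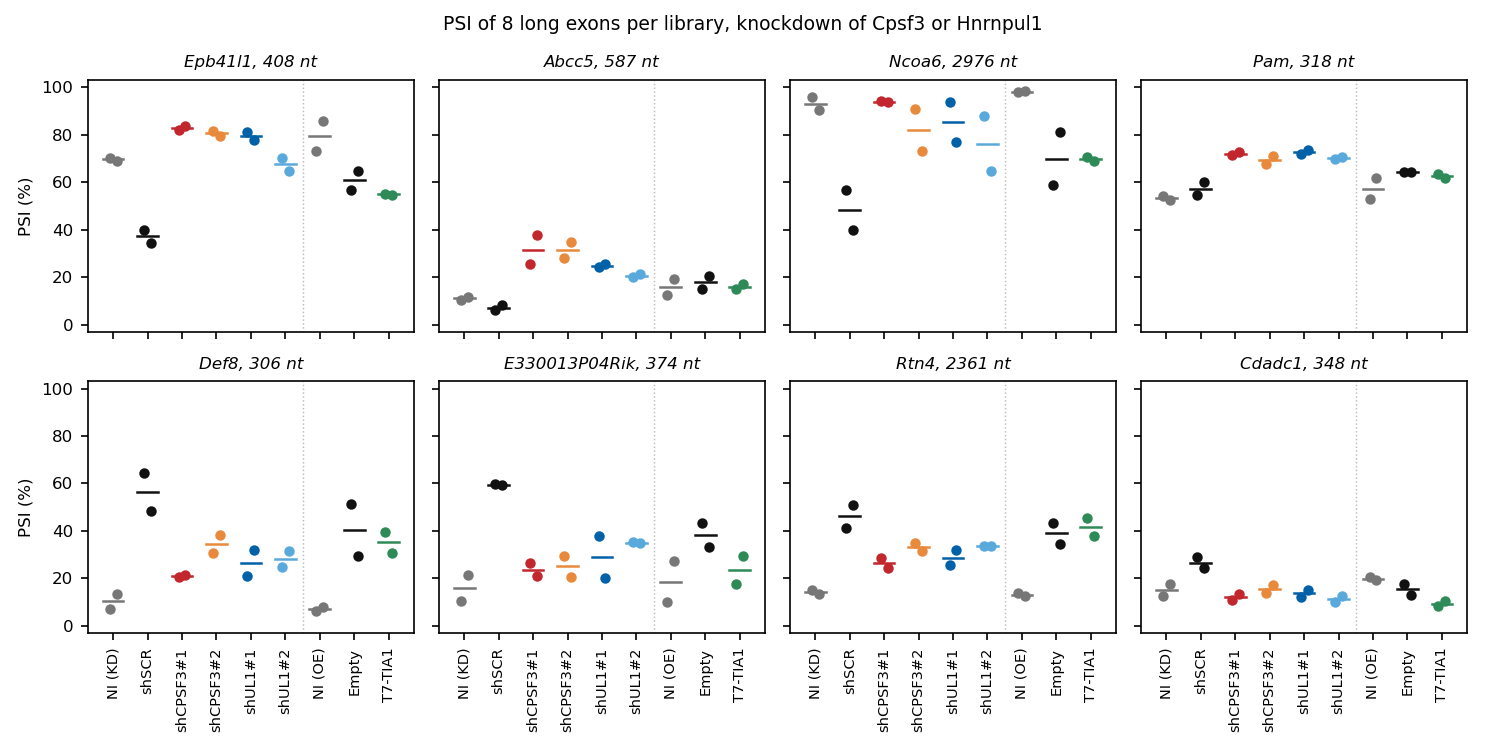
PSI (%) of 8 long exons in each library of the 9 groups, with a line at the mean of the 2 libraries and a dotted line between the knockdown (KD) and overexpression (OE) datasets. *Epb41l1*, *Abcc5*, *Ncoa6* and *Pam* lie higher in the 8 knockdown libraries than in shSCR, and *Def8*, E330013P04Rik, *Rtn4* and *Cdadc1* lie lower.

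No long exon passed the read-level test between T7-TIA1 and Empty at day 12, and *Vcan* had the largest PSI difference among exons past the ∆PSI criteria. TIA1 is an RNA-binding protein known to promote the use of weak 5′ splice sites. The *limma* read-level test called 0 of 2227 long exons, against 0.00329% of all 273354 events (0.000732% higher and 0.00256% lower) and 0.00482% of the shorter cassette exons. The test gave 240 an unadjusted p under 0.05, a count without its share over all events, so it is not read as particular to long exons. The ∆PSI criteria were met by 16 long exons in 15 genes, 9 higher and 7 lower, or 0.422% against 0.33% of 380903 events (0.145% higher and 0.185% lower) and 0.392% of the shorter cassette exons. The larger number turned to the lower side when 1 library of every group was left out, with 7 higher and 16 lower without replicate 1 and 18 and 22 without replicate 2. Only 1 of the 16 had a |∆PSI| of 15 or more. This was *Vcan*, with 45.6 and 59.0 in Empty and 69.1 and 65.8 in T7-TIA1 (∆PSI = 15.2, log2 change 0.88 ± 0.25, adjusted p = 0.785). The T7-TIA1 libraries had the highest *Vcan* inclusion of all 18, above 39.0 to 57.7 in the knockdown libraries.

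None of the other differences passed the read-level threshold. *Gcnt2* and *Cenpj* had ∆PSI of 13.4 and 13.0 at exons that match no annotated exon, and E330013P04Rik had 43.2 and 33.1 in Empty and 17.8 and 29.5 in T7-TIA1. *Pla2r1*, a phospholipase receptor gene, had 93.5 and 92.0 in Empty and 77.0 and 80.2 in T7-TIA1 at its 381-nt exon. *Ccdc136* had 89.9 and 91.4 and 73.4 and 83.3, with ∆PSI = −12.3. The values of *Pla2r1* and *Ccdc136* did not overlap between the groups. *Rbm4* had 80.7 and 80.9 in Empty and 63.7 and 74.5 in T7-TIA1, and the 306-nt exon of *Ptprs* had 59.2 and 66.1 and 77.9 and 71.8. The adjusted p was 0.785 for each of these 8 exons, *Vcan* included.

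**Figure D5:**
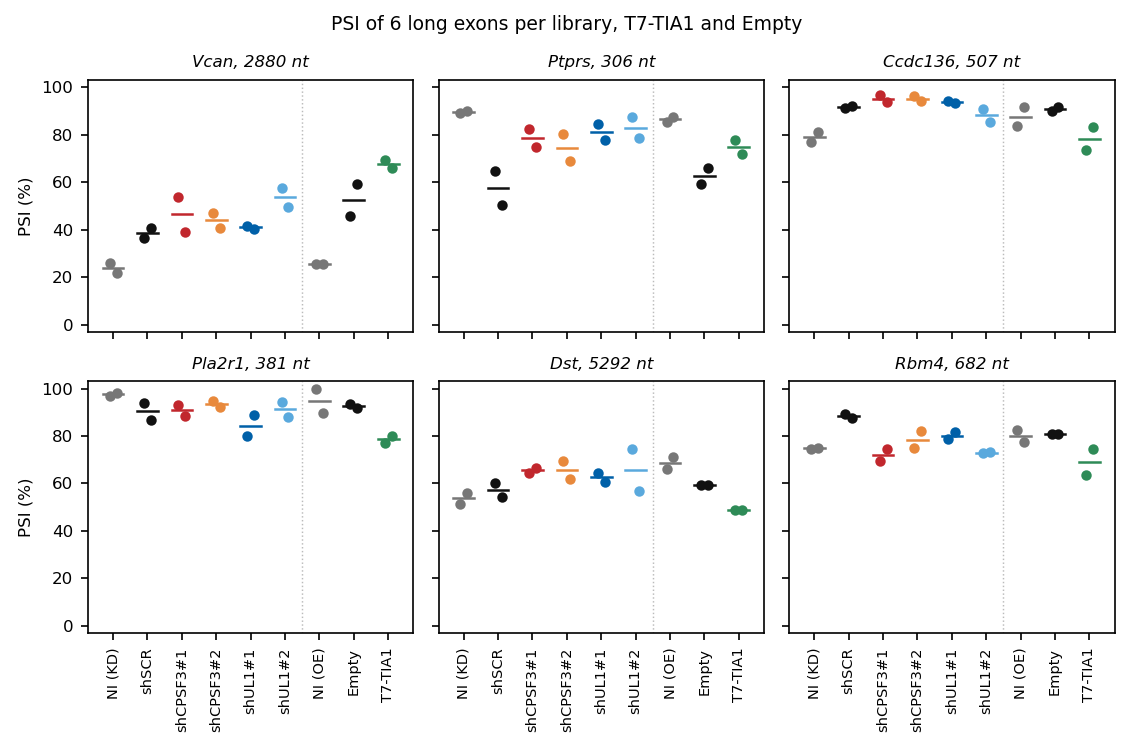
PSI (%) of 6 long exons in each library of the 9 groups, with a line at the mean of the 2 libraries and a dotted line between the knockdown (KD) and overexpression (OE) datasets. *Vcan* and *Ptprs* lie higher and *Ccdc136*, *Pla2r1*, *Dst* and *Rbm4* lower in T7-TIA1 than in Empty, with an adjusted p of 0.785 for each.

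The long exons were also counted by lists of genes. Each list holds only the genes written down for it and leaves out others of the same function, so its counts are not those of a whole class of genes. Between NI and shSCR, they are read beside the 3.85% of tested long exons and 2.93% of all tested events that were called. The list of matrix and adhesion genes had 33 long exons in 13 genes, with a median ∆PSI of 0 between NI and shSCR, as over all long exons. The read-level test called 4 of the 26 tested, 1 higher and 3 lower. *Col6a3*, which encodes a chain of collagen VI with many N-terminal domains on single exons, held 2 of them. Its 600-nt exon (chr1:90813215-90813814, minus strand) fell from 86.1 and 82.8 in NI to 58.5 and 51.7 in shSCR (adjusted p = 0.0162), while a 618-nt exon, added after its values were seen, rose from 4.92 and 5.94 to 10.2 and 12.8 (adjusted p = 0.0338). The call of the 600-nt exon was lost without any 1 of the 4 libraries, with adjusted p of 0.0681 to 0.0978. Another, of 603 nt, had 72.2 and 68.6 and 56.5 and 54.0 (adjusted p = 0.12). Long exons of 1 gene thus differed in direction. Both *Col6a3* exons that were lower in shSCR were below NI in all 8 knockdown libraries as well, at 41.1 to 69.5 and 45.5 to 64.7. The knockdown libraries were set against the same NI libraries as shSCR. In the overexpression dataset the 600-nt exon was lower in Empty than in NI without being called (∆PSI = −20.6, adjusted p = 0.298). The values of the 603-nt exon overlapped there, with 63.09 and 47.86 in NI and 56.99 and 59.63 in Empty (∆PSI = 2.84, adjusted p = 0.87).

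The list of giant cytoskeletal linkers and 4.1 proteins had 60 long exons in 20 genes, of which 42 were tested and 2 were called between NI and shSCR, 1 in each direction. Beside *Epb41l1*, the 450-nt exon of its paralog *Epb41* (chr4:131937015-131937464, minus strand) had 15.2 and 14.1 in NI and 40.9 and 57.9 in shSCR, with ∆PSI = 34.8 (adjusted p = 0.063). Both paralogs thus differed by over 30 points in opposite directions. In the overexpression dataset *Epb41* had 16.8 and 17.3 in NI and 37.8 and 37.2 in Empty (adjusted p = 0.0888), and *Epb41l1* had 73.1 and 85.8 and 56.9 and 64.6 (adjusted p = 0.253). The 5292-nt exon of *Dst* had 59.2 and 59.4 in Empty and 49.0 and 48.6 in T7-TIA1, and a 2611-nt exon of *Dst* that is not annotated had 10.3 and 7.96 in NI and 24.6 and 18.9 in Empty (adjusted p = 0.785 and 0.313). *Nav2*, a neuron navigator gene, had 75.6 and 83.6 in NI and 58.4 and 64.4 in Empty (adjusted p = 0.217) but 67.1 and 70.9 and 68.3 and 69.1 in the knockdown dataset. *Nav1* had 97.3 and 92.5 in NI and 83.1 and 84.3 in shSCR (adjusted p = 0.196).

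The SR proteins and their relatives had 6 long exons, of which 5 were tested and 2 were called between NI and shSCR, both higher. One was a 490-nt exon of *Srrm2*, which encodes a spliceosome component, with 2.18 and 2.81 in NI and 17.9 and 10.9 in shSCR (adjusted p = 0.0152, and up to 0.104 without a library of NI or replicate 1 of shSCR). Its site is not annotated. The list of 39 genes of hnRNPs and other RNA-binding regulators, to which *Rbmx* and *Rbm4* do not belong, had 8 long exons, all tested. Of these 2 were called, 1 in each direction, both with a |∆PSI| under 10. In this list *Hnrnpl* had 65.5 and 59.2 in shSCR, 36.3 to 51.5 with shRNAs against *Cpsf3* and 33.1 to 54.5 with those against *Hnrnpul1* at a 497-nt exon (adjusted p = 0.137 and 0.224). This exon had 372 upstream and 3357 downstream reads, and its 5′ splice site is that of an annotated first exon. Its PSI can thus also count transcripts that start there. The list of 36 chromatin and genome maintenance genes had 61 long exons, 35 of them tested, and that of 33 vesicle traffic genes had 35, with 15 tested. On these lists 0 exons passed the ∆PSI criteria and 0 were called by *limma* in any of the 5 comparisons, and 6 and 2 had an unadjusted p under 0.05 in shSCR against NI, beside 561 of the 2572 long exons tested. The exons of *Phf8* and *Nasp*, chromatin genes outside the list, were called, as described above.

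The mRNA level of the host genes was higher for some and lower for others where PSI was higher. *Nasp* mRNA was at 200 and 220 scaled CPM in NI and 263 and 564 in shSCR, and at 174 and 115 in NI and 667 and 580 in Empty, so that mRNA and exon inclusion were both higher at day 12. *Rtn4* mRNA was lower at day 12 while inclusion of its exon was higher, with 1370 and 1290 in NI and 475 and 434 in shSCR. *Epb41l1* mRNA was at 80.8 and 94.7 in NI, 53.6 and 53.9 in shSCR and 71.9 to 112 with shRNAs against *Cpsf3*. *Pam* mRNA had 89.3 and 107 in NI and 321 and 273 in shSCR, whereas its PSI differed by 4.04 points. *Ncoa6* mRNA had 81.2 and 80.6 in NI, 64.2 and 60.5 in shSCR and 63.2 to 73.2 in the knockdown libraries, a narrow range beside its PSI values. *Vcan* mRNA was higher in the knockdown libraries, at 444 to 1340, than in shSCR, at 144 and 165. These levels are given as a description, and whether they bear on the PSI was not tested.

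In all, 84 of the 3792 long exons, in 80 genes, passed the ∆PSI criteria in at least 1 of the 5 comparisons, or 2.22%, against 1.69% of 368707 events covered in all 18 libraries and 1.96% of the shorter cassette exons. The read-level test called 113 in at least 1, or 2.98%, against 2.67% and 2.99%. Of the 84, 45 were annotated exons, and 36 had strongly unequal reads on the inclusion junctions (balance score B2 or B3 in any library), against 347 of all 3792. The share that passed was 1.87% below 500 nt, 2.31% from there to below 1000 nt and 3.36% for 1000 nt or more, and 5.65% for exons with no match in the annotation against 1.45% for those with one. Restricted to annotated exons, the numbers past the criteria were 31 for shSCR, 22 for Empty, 15 for knockdown of *Cpsf3*, 15 for knockdown of *Hnrnpul1* and 8 for T7-TIA1.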

How the data were processed

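The deposited table holds PSI in percent for each annotated event and library, made by the authors with *vast-tools* on mm10 from stranded polyA libraries, beside coverage and balance scores and the inclusion and exclusion reads. Per the labels' processing notes, STAR 2.7.1a and edgeR 3.16.5 gave the deposited gene expression signal, a scaled CPM limited by the authors to variable genes with at least 5 CPM in 33% of the samples, so a gene that is not listed may be expressed. Balance scores B2 and B3 mark the strongest imbalance between the inclusion junctions, and in B3 one junction has no read. Annotation came from GENCODE M21 (mm10). Members and gene lists were chosen with earlier results of these data known.

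For events covered in all libraries of a dataset, log2((inclusion + 1)/(exclusion + 1)) was tested two-sided with *limma* 3.58.1 (R 4.3.3, robust, weights from the counting variance with a floor of 0.05), all groups in 1 fit, with Benjamini-Hochberg adjustment over 298974 (knockdown) or 273354 (overexpression) events. Constant events were not tested. The scripts were tested on simulated data. PSI was handled with Python 3.11.15, NumPy 2.4.6 and pandas 2.3.3. Named were, per comparison, up to 5 exons in each direction with an adjusted p under 0.05, |∆PSI| of at least 10 and no overlap of libraries, filled to 3 by the ∆PSI criteria, and exons of listed genes that passed these criteria.

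Same-numbered day 12 knockdown libraries deviated together from their group means (r = 0.103, 0.18 and 0.174 among shSCR, shCPSF3#1 and shCPSF3#2, and 0.192, 0.115 and 0.205 among shSCR, shUL1#1 and shUL1#2, over 15511 events), so the replicate block is given beside those results. Over 125 long exons these r were larger, at 0.141, 0.312 and 0.331, and 0.32, 0.292 and 0.479. Libraries of NI and shSCR (r = 0.0204, and 0.0878 over long exons) or NI and Empty (r = 0.0238 and −0.0289) did not clearly deviate together. For Empty and T7-TIA1 r was 0.113, with only 2 groups, and the block is given with the alternatives. Other alternatives were the reads added, the weights, the coverage minimum, the balance scores, the groups in the fit, leaving out libraries and the minimum difference.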

Additional observations from a re-analysis of the deposited data

Results flagged for a closer look

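For 6 long exons past the ∆PSI criteria between day 12 and NI in at least 1 of the 2 datasets, both libraries at day 12 moved one way from both NI libraries in the knockdown dataset and the opposite way in the overexpression dataset. The difference between the datasets was not tested for any of them, and with 2 libraries a group some such patterns can arise without a difference between the datasets. The 6 come from the lists of 61 exons (shSCR) and 40 exons (Empty), which share 29. How often all events show this pattern was not counted. *Slc38a6*, which encodes an amino acid transporter, had ∆PSI of −6.49 with shSCR and 12.9 with Empty at a 1535-nt exon. Its NI libraries stood apart, at 90.6 and 94.7 in the knockdown dataset and 39.1 and 46.6 in the overexpression dataset. *Zscan26*, a zinc finger gene, had 11.7 and −13.1, and the former was called by the read-level test (*limma* adjusted p = 0.0321). *Cenpj*, which encodes a centriole protein, had 3.78 and −11.7, and *Cdadc1* had 11.5 and −4.54. *Lcorl* had −17.6 and 7.16, and Gm15800 had −6.11 and 15.1. The exons of *Cenpj*, *Cdadc1* and *Lcorl* match no annotated exon, and those of *Slc38a6*, *Cenpj* and *Lcorl* had strongly unequal inclusion junctions. *Mipol1* and *Med1*, which passed the criteria in other comparisons but in neither of these, showed the same pattern. *Mipol1* had 58.4 and 70.6 in NI and 50.8 and 54.1 in shSCR against 66.6 and 67.0 in NI and 73.9 and 75.5 in Empty, and *Med1*, which encodes a Mediator subunit, had ∆PSI of −3.78 and 4.55.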

How the results depend on the processing

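Over 93 pairs of a named exon and a comparison, 1102 alternatives gave 0 reversals, 876 without change of call, 204 in which a call was lost and 22 in which one was gained. Of the 35 pairs called, 32 were called with the replicate block, 34 with 0.5 reads added, 13 without weights, 29 with a weight floor of 0.2, 14 on PSI in percent, 35 with coverage LOW or better and 0 with only the compared groups in the fit, which leaves few residual degrees of freedom. Calls of 7 pairs held with each library left out. A group left with 1 library is assumed to vary like the others, and the causes were otherwise not tested.

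For the read-level test, the 99 long exons called for shSCR became 42 on PSI in percent, 0 with only the compared groups, 63 with annotated exons only and 19 to 53 with 1 library left out. The 2 for Empty became 8 with the replicate block, 6 with 0.5 reads added, 1 on PSI in percent, 0 with only the compared groups, 1 without exons scored B2 or Bn, 1 without B2 or B3, 1 with annotated exons only and 0 with any 1 library left out. The 37 for *Cpsf3* became 4 without weights, 22 on PSI in percent, 0 with only the compared groups, 21 without B2 or Bn, 21 without B2 or B3, 21 with annotated exons only and 9 to 31 with 1 library left out. The 14 for *Hnrnpul1* became 25 with the replicate block, 1 without weights, 0 with only the compared groups, 8 without B2 or Bn, 8 without B2 or B3, 7 with annotated exons only and 4 to 21 with 1 library left out. The 0 for T7-TIA1 became 1 with 0.5 reads added. With only the compared groups, 494, 385, 469 and 369 exons had an unadjusted p under 0.05 for shSCR, Empty, *Cpsf3* and *Hnrnpul1*, again without the share over all events.

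Between NI and day 12 the replicate numbers share only a label, and between Empty and T7-TIA1, with 1 pair of groups, whether they pair the libraries was not settled. There the replicate block gave 145 for shSCR and 0 for T7-TIA1, without the share over all events. Among named exons it added, for shSCR, *Epb41* (450 nt, *limma* adjusted p = 0.00832), *Ncoa6* (0.00424) and *Ptprs* (600 nt, 0.0272). It also added *Col6a3* (603 nt, 0.0149), *Cdadc1* (0.0447) and E330013P04Rik (0.0363).

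By the ∆PSI criteria, the 61 for shSCR became 38 and 25 at a minimum of 15 and 20, 36 without B2 or Bn, 36 without B2 or B3 and 31 with annotated exons only. The 40 for Empty became 15 at a minimum of 20, 25, 24 and 22 by the same 3 restrictions, and 57 to 74 without replicate 1 or 2 of every group. The 33 for *Cpsf3* became 17 and 7 at 15 and 20, and 15, 16 and 15. The 31 for *Hnrnpul1* became 13 and 10, and 15, 16 and 15, and 30 to 50 without a replicate. The 16 for T7-TIA1 became 1 and 0, and 10, 10 and 8, and 23 to 40 without a replicate. The split by direction, 36 higher and 25 lower for shSCR and 22 and 18 for Empty, became 18 and 20 and 13 and 14 at a minimum of 15, and for Empty 36 and 38 without replicate 2. For *Cpsf3*, 18 and 15 became 23 and 25 without replicate 2. Requiring each shRNA to differ by 10 points left 28 for *Cpsf3* and 24 for *Hnrnpul1*. That form and the restrictions to B2 or B3 and to annotated exons were chosen after seeing the data.

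The share of long exons with a mean PSI of 10 to 90 was 3.27% in NI, 3.53% in shSCR, 3.19% and 3.53% in shCPSF3#1 and shCPSF3#2, 3.51% and 3.38% in shUL1#1 and shUL1#2, 3.03% in NI of the overexpression dataset, 3.45% in Empty and 3.80% in T7-TIA1. With coverage LOW or better it was 3.10%, 3.30%, 2.99%, 3.33%, 3.33%, 3.21% and 2.79% in the first 7 of these groups, and with 1 event per gene 3.14%, 3.43%, 2.89%, 3.29%, 3.22%, 3.11% and 2.81%. With 1 library left out it was 3.27% to 3.30%, 3.56% to 3.64%, 3.16% to 3.43%, 3.43% to 3.56%, 3.40% to 3.53%, 3.38% to 3.59%, 2.98% to 3.19%, 3.56% to 3.88% and 3.82% to 4.56% in the 9 groups. Exons near the minimum of 10 reads have PSI values with wide counting errors.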

Other observations

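The 61 exons that passed with shSCR moved by a median of 17.5 points there, and in the same direction by 9.80 in shCPSF3#1, 11.3 in shCPSF3#2, 11 in shUL1#1 and 10.5 in shUL1#2. Since the 61 were chosen on the shSCR libraries, smaller values elsewhere are in part built in.

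Some of the longest events were almost constant. The 7963-nt event of *Epb41* had a PSI of 0 to 0.87 over the libraries, and the 8020-nt exon of *Spen*, a transcriptional repressor, 98.84 to 100. A 5425-nt event of *Lrrfip1* that matches no annotated exon had 44.36 to 72.41. Of exons within 10 nt of the length limit, 3.3% of 212 inside it and 1.63% of 246 outside it passed the ∆PSI criteria between NI and shSCR, with a median PSI in shSCR of 100 in both.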
